A study of Bos taurus with 24 samples.

Results

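The solute carrier (SLC) genes described here are the 71 genes whose symbol starts with SLC and a digit in the gene lists that came with the study, out of 24616 genes measured in every library. The lists are cut short, and 2808 of the measured genes have a symbol in them. Of the 71 genes, 40 were listed in the order of their identifiers, 30 in the order of significance of the comparison of high with low responders at 18 hours, and 1 (SLC13A5) in the order of significance at 3 hours. The set is therefore not a random sample of the SLC family, and genes of the family that have no symbol here were not analysed. The first 40 genes were not placed by their values, whereas the difference between responder groups chose the other 31.

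Monocyte-derived macrophages (MDMs) are cells grown from blood monocytes that attach and mature into macrophages in culture. They came from 6 lactating female Holstein cows, 3 whose MDMs made much nitric oxide when they met E. coli (high responders) and 3 whose MDMs made little (low responders). The cells matured for 6 days in serum-free medium with recombinant bovine GM-CSF, a growth factor for macrophages. Per cow, 1 well was left untreated (control) and 1 was exposed to E. coli inactivated with PFA at a multiplicity of infection of 5, and RNA was taken after 3 or 18 hours, which gave 8 conditions of 3 libraries each. All cells had been grown with GM-CSF, control wells included, so that no condition shows the monocyte before culture, and the phenotype was measured on cells of the same cows. Cows are named by the number in their library code, which holds only within 1 responder group and time point, since the same number elsewhere need not be the same cow. Values are given in the order 92, 93, 94 (high) and 91, 92, 93 (low) at 3 hours, and 91, 93, 94 (high) and 91, 92, 94 (low) at 18 hours.

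SLC proteins are membrane carriers that move sugars, amino acids, organic acids, metals, vitamins, nucleosides and ions across the plasma membrane or across the membranes of mitochondria, lysosomes and other compartments. Most of them do not use ATP directly but let their substrate run down a gradient or couple it to sodium, protons or an exchanged solute. Macrophages that meet bacteria are known to take up more glucose and amino acids and to move iron, zinc and manganese between compartments, and several of these carriers are known in that setting.

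The libraries held between 6297190 and 20936554 expected counts, the number of read pairs that the authors' software assigned to genes. Of the macrophage markers that have a symbol here, CD68 ranged from 1215 to 2671 TPM (an abundance per transcript length), CD14 from 41.0 to 321 and MSR1 from 15.5 to 788 over the 24 libraries. The B cell marker CD79A ranged from 0.17 to 2.67 TPM, and markers of T cells, NK cells, dendritic cells, neutrophils and fibroblasts have no symbol here and were not analysed. At 3 hours, 2 control libraries of the high responder group stood apart. In library 94, 9.92% of the 11264 genes tested were over 2-fold above or below both other libraries of its condition, and in library 92 it was 7.92%, against 1.31% to 5.84% in the other 10 libraries of that time point. Among 52 SLC genes tested, library 94 was over 2-fold lower than both others in 8 (SLC22A15, SLC23A2, SLC26A2, SLC36A1, SLC38A1, SLC46A3, SLC4A4 and SLC7A11) and over 2-fold higher in 4 (SLC16A13, SLC25A22, SLC2A10 and SLC2A6). Values without this cow are given below where they differ.

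In TPM, which allows levels of different genes to be compared, 13 of the 71 genes had a mean of 50 or more over the 24 libraries, 39 were between 1 and 50, 9 were above 0 but under 1, and 10 had no count in any library. The 10 genes without a count are SLC10A1, SLC14A2, SLC17A2, SLC34A2, SLC44A5, SLC45A1, SLC4A1, SLC6A7, SLC9A2 and SLC9C2. They include carriers best known from liver, kidney, intestine and red cells, such as the bile acid carrier SLC10A1, the urea carrier SLC14A2 and the red cell anion exchanger SLC4A1. The highest mean level was that of SLC2A3, the glucose carrier GLUT3, at 342 TPM. It was followed by SLC3A2, the heavy chain that brings several amino acid carriers to the plasma membrane, at 244 TPM and by SLC39A8, a zinc and manganese carrier, at 218 TPM. SLC37A2, a sugar phosphate exchanger of the endoplasmic reticulum that is abundant in macrophages, had 179.9 TPM, and SLC11A1, the phagosomal metal carrier NRAMP1, had 143 TPM. SLC2A6, SLC23A2, SLC2A1 and SLC38A1 came next with means of 102, 83.7, 79.9 and 71.2 TPM. In the 6 control wells at 3 hours, the order of the neighbours was not clear-cut: SLC37A2 ranged from 209 to 348 TPM and SLC3A2 from 161 to 226, SLC39A8 from 67.6 to 127, SLC2A3 from 46.7 to 147 and SLC11A1 from 71.5 to 136. Thus, in untreated wells only the step from SLC3A2 to the last 3 exceeded the spread between wells, and these 3 overlapped.

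**Figure D1:**
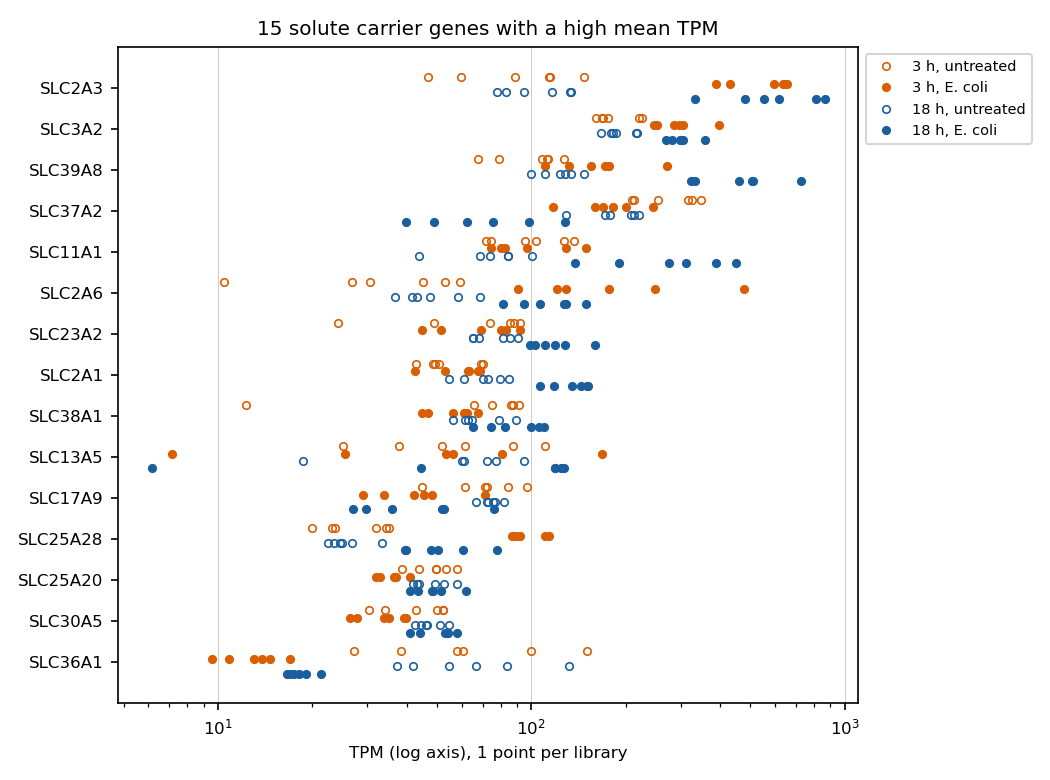
TPM (log axis) of 15 SLC genes with a high mean, 1 point per library, for untreated (open) and E. coli (filled) wells at 3 hours (orange) and 18 hours (blue), 6 libraries each. SLC2A3 lies between 46.7 and 147 TPM in untreated wells at 3 hours and between 390.1 and 654 TPM after E. coli; on this scale the median of all tested genes is lower in exposed wells, by 0.45 (log2) at 3 hours and 0.26 at 18 hours.

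To see which SLC genes responded to the bacteria, the effect of E. coli was averaged over both responder groups, a contrast that does not use the difference by which part of the genes had been listed. A gene is called differentially expressed (DE) when the edgeR quasi-likelihood test gave an adjusted p under 0.05 over all genes tested and the fold change (FC) exceeded 1.5. At 3 hours, 13 SLC genes were higher and 11 were lower after E. coli out of 52 tested, which is 46.2%, beside 25.5% of all 11264 genes (13.5% higher and 12% lower). At 18 hours, 15 were higher and 19 lower of 53 tested, or 64.2%, beside 36.5% of 11759 genes (15.1% higher and 21.4% lower). In the genes listed by identifier, which no value had placed, 7 of 21 tested (33.3%) were DE at 3 hours and 11 of 22 (50%) at 18 hours, 2 of them higher and 9 lower. In the 30 genes listed by significance at 18 hours, 17 (56.7%) and 23 (76.7%) were DE. Listing by significance can favour genes with many counts and little spread between cows. All 30 of these genes were tested at 3 hours, against 21 of the 40 listed by identifier. The shares of the 30 genes and of the whole set are therefore not free of the listing, although the contrast is another one. The median log2 fold change of the SLC genes was 0.01 at 3 hours and -0.01 at 18 hours, beside -0.02 over all genes at both times. At 18 hours the median was -0.29 in the genes listed by identifier and 0.41 in those listed by significance, of which 13 were higher and 10 lower. Counts for smaller groups of carriers, given below, are to be read against the same shares of all genes. The 19 genes not tested at 3 hours were the 10 without counts and 9 with at most 169 counts in all 24 libraries together, and these counts describe the tested genes, not all 71. RNA of whole wells was sequenced, so that fewer cells that express a gene and less RNA per cell cannot be told apart.

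**Figure D2:**
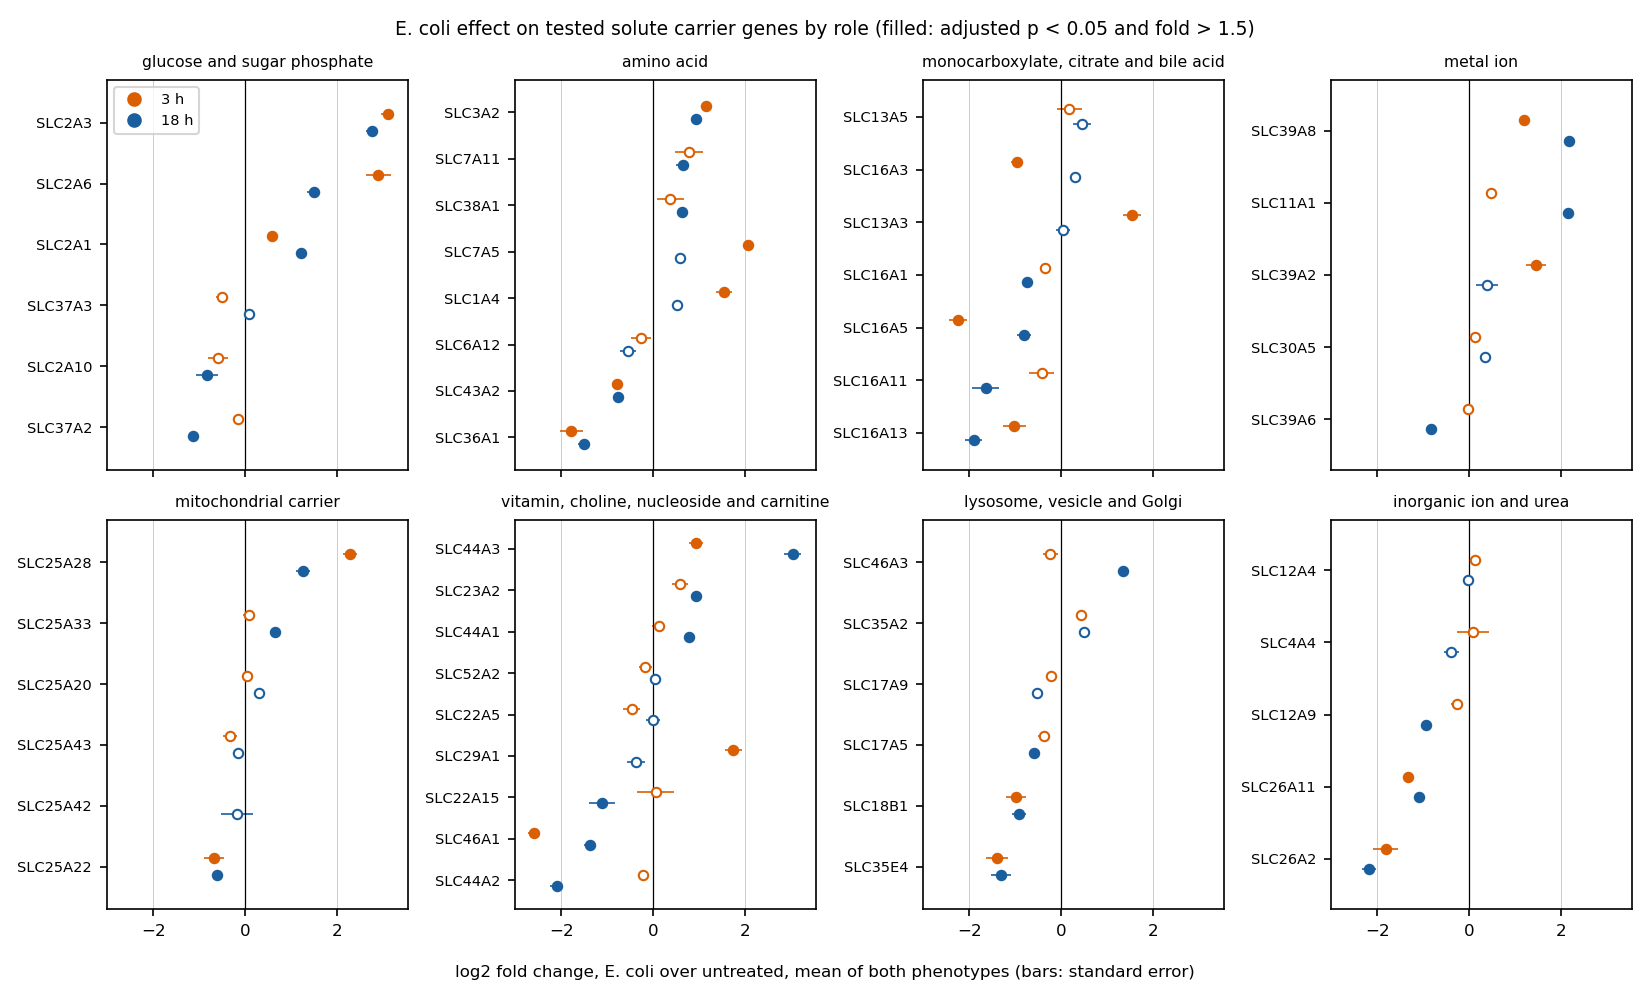
Log2 fold change of E. coli over untreated wells (mean of both responder groups, bars are standard errors) for tested SLC genes in 8 groups by what the carriers move, at 3 hours (orange) and 18 hours (blue). Filled points are DE, 12 higher and 11 lower at 3 hours and 14 higher and 19 lower at 18 hours among the genes drawn.

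Glucose carriers gave the largest increase of the set at 3 hours. Of the 4 genes of the SLC2 family, 3 rose at both time points, the basal carrier SLC2A1 (GLUT1), the high-affinity carrier SLC2A3 and the lysosomal member SLC2A6. SLC2A3 (ENSBTAG00000004556) had 238, 154 and 149.6 CPM (counts scaled to library size) in control wells of the high responder group at 3 hours and 2517, 2551 and 1289.8 CPM in their exposed wells. In the low responder group, control wells held 324, 305 and 398 CPM and exposed wells 1640.0, 2269 and 2428 CPM. Each of the 6 exposed wells was far above each of the 6 control wells. The fold change at 3 hours was 8.57 (log2 3.1 ± 0.14 SE, n = 6 cows, edgeR adjusted p = 5.37e-07). At 18 hours, the exposed wells of SLC2A3 held 2789, 2107 and 2684 CPM in the high and 1393, 928 and 1633 CPM in the low responder group, against 205 to 347 CPM in all control wells, with a fold change of 6.71 (log2 2.75 ± 0.13, edgeR adjusted p = 1e-07). The exposed high responder wells thus all lay above the exposed low responder wells at 18 hours, a difference on which this gene was listed.

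SLC2A6 rose more at 3 hours than at 18 hours. Its control wells at 3 hours held 13.9, 39.0 and 84.3 CPM in the high and 83.9, 59.2 and 36.0 CPM in the low responder group, and its exposed wells 174, 935 and 406 CPM and 334, 245 and 229 CPM. The spread between cows of the high responder group was wide, but exposed and control wells did not overlap. The fold change was 7.44 at 3 hours (log2 2.89 ± 0.27, edgeR adjusted p = 4e-05), 3.26 on the log2 scale without cow 94, and 2.80 at 18 hours (log2 1.49 ± 0.14, edgeR adjusted p = 7.82e-06). SLC2A1 went from a median of 88.9 CPM (range 69.5 to 119) in control wells to 136 (98.9 to 162) in exposed wells at 3 hours. At 18 hours it went from 110.0 (83.6 to 129.5) to 254 (212 to 294). In TPM, SLC2A1 was higher in only 3 of 6 cows at 3 hours (mean log2 change 0.12) and in 6 of 6 at 18 hours. Its wells overlapped at 3 hours, where the fold change of 1.51 was just past the minimum and was lost without high responder cow 93, low responder cow 92 or low responder cow 93 (log2 0.50, 0.58 and 0.56), and they were apart at 18 hours (FC 2.30, log2 1.2 ± 0.08, edgeR adjusted p = 6.75e-07). Of the other sugar genes, SLC37A2 was not DE at 3 hours (log2 -0.17 ± 0.08) and fell 2.19-fold at 18 hours, from 228 to 375 CPM in control wells to 86.0 to 239 CPM in exposed wells. SLC2A10 (GLUT10) fell at 18 hours by 0.83 ± 0.24 on the log2 scale, and by 0.54 with no DE call without high responder cow 93. SLC37A3 was not DE at either time, though its log2 value of -0.51 at 3 hours was -0.60 and DE without high responder cow 94.

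Amino acid carriers moved in both directions. Of 8 tested, 3 were higher and 2 lower at each time point, but not the same 3. SLC7A5 (LAT1, ENSBTAG00000006731), the light chain that exchanges large neutral amino acids for glutamine, had 29.1, 44.4 and 44.3 CPM in high responder control wells at 3 hours and 140.4, 294 and 260.4 CPM after E. coli. The low responder wells held 69.8, 54.7 and 52.1 CPM without and 181, 159.7 and 157 CPM with E. coli. No control well reached an exposed well, and the fold change was 4.13 (log2 2.05 ± 0.09, edgeR adjusted p = 4.28e-07). By 18 hours the exposed wells held 77.8, 99.6 and 85.9 CPM (high) and 69.0, 73.5 and 62.9 CPM (low) against 38.0 to 68.6 CPM in control wells, now overlapping, and the fold change of 1.49 was just short of the minimum, which it passed without high responder cow 91 or low responder cow 94 (log2 0.64 and 0.62). Its partner SLC3A2 (4F2hc) rose at both times, from a median of 242 to 530.0 CPM at 3 hours (FC 2.2) and from 226 to 434 CPM at 18 hours (FC 1.90, log2 0.93 ± 0.06, edgeR adjusted p = 7e-07), with no overlap between control and exposed wells at either time. SLC7A11 (xCT), the other light chain of SLC3A2 here, which imports cystine in exchange for glutamate, rose at 18 hours only slightly past the minimum (FC 1.56), and its log2 fold change of 0.64 was 0.47 without high responder cow 94 and 0.56 without low responder cow 94, with no DE call in either fit. At 3 hours SLC7A11 was not DE (log2 0.77 ± 0.30). Leaving out either cow of 3 hours whose control library stood apart moved it, to 0.40 without cow 94 and to 1.06, a DE call, without cow 92. SLC1A4, a carrier of alanine, serine and cysteine, was 2.91-fold higher at 3 hours (18.0 to 33.5 CPM in control wells, 51.3 to 134 in exposed wells) and was not DE at 18 hours (FC 1.44), or DE at log2 0.59 without high responder cow 94. SLC38A1, a sodium-coupled glutamine carrier, was higher at 18 hours (FC 1.55). Its log2 value without high responder cow 94 of 18 hours was 0.57, under the minimum, and this number need not stand for the same cow at 3 hours. At 3 hours, SLC38A1 had 13.5 CPM in the control library 94 that stood apart and 64.2 to 84.8 CPM in the other 5 control wells, and its log2 change of 0.37 was 0.00 without that cow.

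SLC36A1 and SLC43A2 were the 2 amino acid carriers that fell. SLC36A1 (ENSBTAG00000016094), a proton-coupled carrier that exports small amino acids from lysosomes, had 92.8, 135 and 30.3 CPM in high and 37.9, 55.5 and 54.5 CPM in low responder control wells at 3 hours. After E. coli these were 17.4, 20.2 and 19.5 CPM and 12.6, 18.3 and 14.3 CPM, so that every exposed well lay in a narrow band below all control wells. The fall was 3.45-fold at 3 hours (log2 -1.79 ± 0.25, edgeR adjusted p = 0.000482, log2 -2.12 without cow 94) and 2.86-fold at 18 hours (log2 -1.52 ± 0.13, edgeR adjusted p = 4.18e-06). SLC43A2 (LAT4), which lets branched-chain amino acids and methionine pass, fell 1.73-fold at 3 hours and 1.70-fold at 18 hours, with overlapping wells. The betaine and GABA carrier SLC6A12 was not DE at either time, though it was DE at 18 hours without high responder cow 91 or low responder cow 92 (log2 -0.74 to -0.44 over the fits that leave out 1 cow), and SLC6A7, SLC6A14 and SLC6A17 were not tested.

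**Figure D3:**
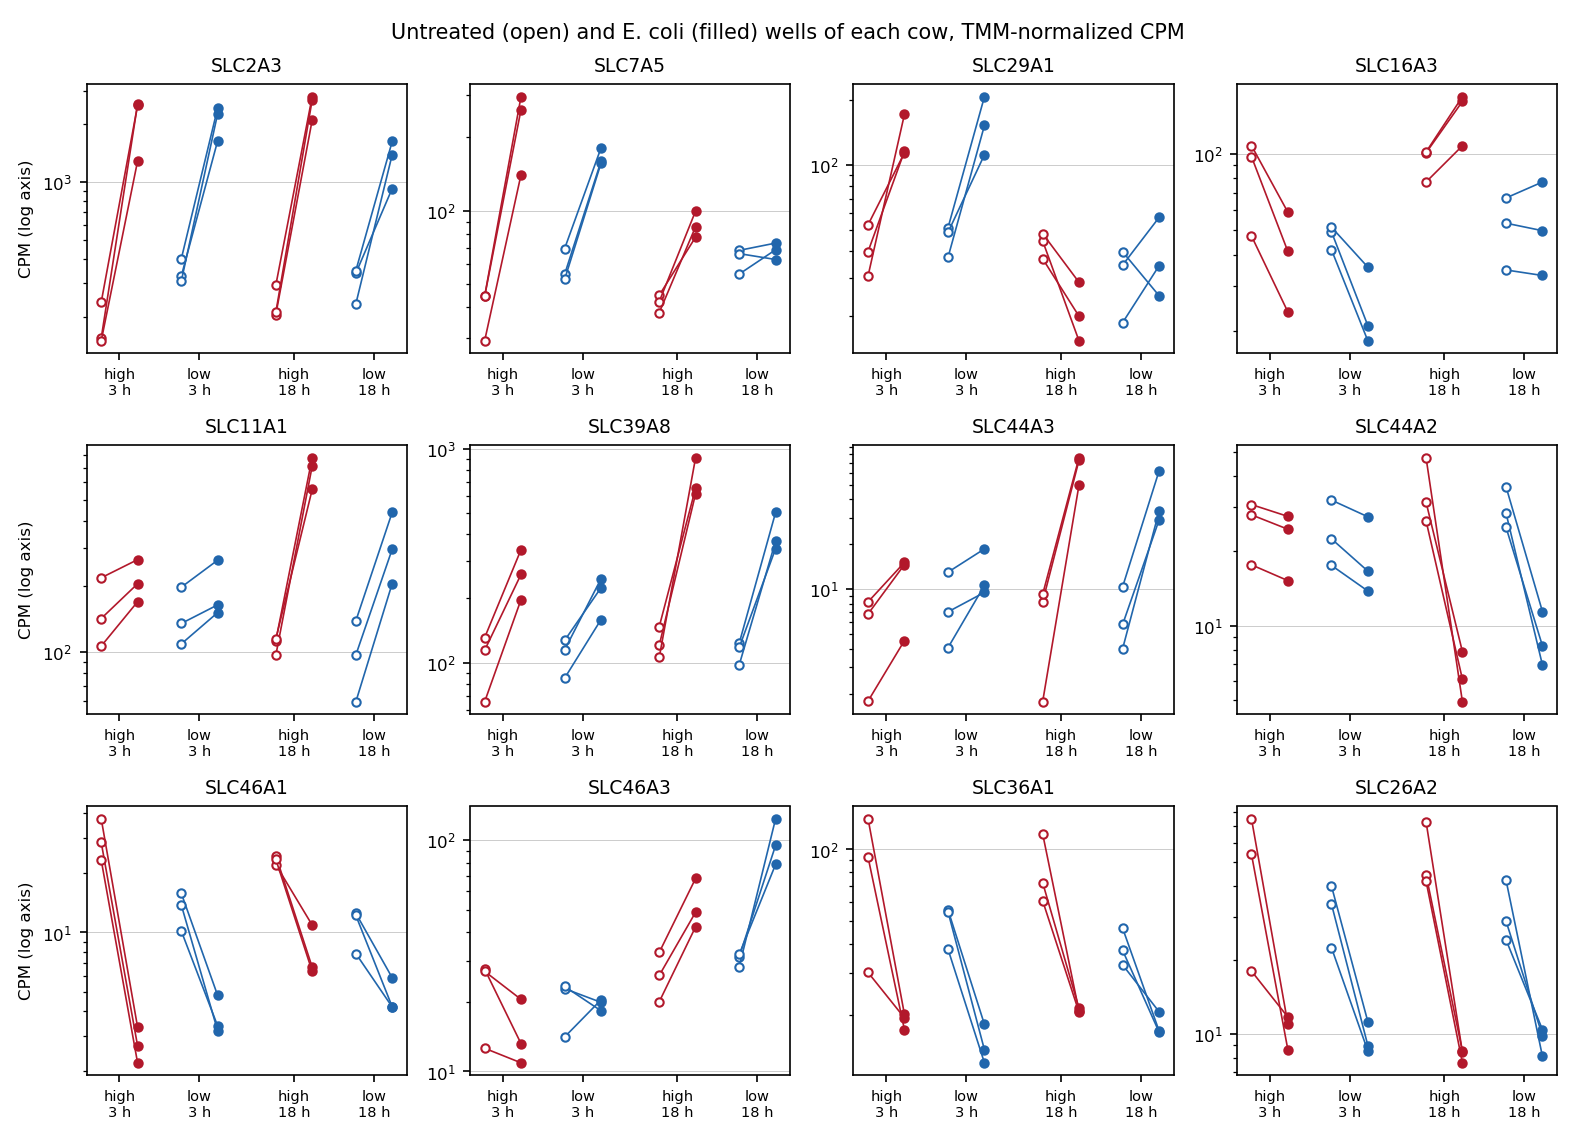
CPM (log axis) of 12 SLC genes in the control (open) and exposed (filled) well of each cow, joined by a line, for high (red) and low (blue) responders at 3 and 18 hours. SLC2A3 rises in all 6 cows at both times, SLC29A1 rises at 3 hours from 30.7 to 52.9 CPM up to 112 to 207 CPM, and SLC44A2 falls at 18 hours to between 4.93 and 11.4 CPM.

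Of 7 tested genes for monocarboxylates and citrate, 1 was higher and 3 were lower at 3 hours, and 4 were lower at 18 hours, when the other 3 (SLC16A3, SLC13A3 and SLC13A5) were not DE, beside 12% and 21.4% of all genes that were lower. SLC13A5 was DE at 18 hours without low responder cow 92, with log2 values of 0.21 to 0.68 over the fits that leave out 1 cow. SLC16A3 (MCT4), the main lactate exporter of glycolytic cells, held 47.4, 97.4 and 108 CPM in high and 41.8, 49.2 and 51.3 CPM in low responder control wells at 3 hours, and 23.8, 41.2 and 58.8 CPM and 18.3, 21.0 and 35.7 CPM after E. coli. It was lower in the exposed well of each of the 6 cows (FC 1.95, log2 -0.97 ± 0.12, edgeR adjusted p = 0.000215), although wells of different cows overlapped. At 18 hours it was no longer lower (log2 0.30 ± 0.07), with 161, 107 and 168 CPM in exposed high responder wells against 101, 77.3 and 102 CPM in their controls and 49.7, 33.1 and 77.3 CPM against 53.2, 34.8 and 66.9 CPM in the low responder group. SLC16A1 (MCT1), the more widespread lactate carrier, was not DE at 3 hours and fell at 18 hours (log2 -0.74 ± 0.06, edgeR adjusted p = 4.13e-06).

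SLC16A5, a less studied member of the same family, fell more at 3 hours than at 18 hours, unlike SLC16A1. It fell 4.76-fold at 3 hours, from 6.69 to 18.0 CPM in control wells to 1.5 to 3.45 CPM in exposed wells, and 1.75-fold at 18 hours. SLC16A13 and SLC16A11, which lie next to each other in the bovine RefSeq annotation and are the only 2 of the 71 genes that neighbour each other, were low but countable. At 18 hours SLC16A13 fell from 6.72, 5.38 and 4.64 CPM to 1.24, 1.03 and 0.481 CPM in high and from 3.71, 4.20 and 4.06 CPM to 1.28, 2.14 and 1.81 CPM in low responder wells (FC 3.75, log2 -1.91 ± 0.18, edgeR adjusted p = 9.77e-06). SLC16A11 fell 3.15-fold at that time (log2 -1.65 ± 0.30, edgeR adjusted p = 0.000784), and exposed wells lay below control wells in both genes. At 3 hours SLC16A13 was lower (FC 2.03) and SLC16A11 was not DE (log2 -0.43 ± 0.28). The dicarboxylate carrier SLC13A3 was higher at 3 hours only, with 42.1 to 146 CPM in exposed and 14.6 to 30.1 CPM in control wells (FC 2.91, log2 1.54 ± 0.20, edgeR adjusted p = 0.000328), and its value at 18 hours was 0.03 ± 0.15 on the log2 scale.

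Metal carriers held 2 of the strongest late responses. SLC11A1 (ENSBTAG00000015520), which pumps iron and manganese out of the phagosome and is known for its part in resistance to intracellular bacteria, changed little at 3 hours. Its control wells at that time held 107, 143 and 219 CPM (high) and 109, 135 and 198 CPM (low), and its exposed wells 170.3, 206 and 265 CPM and 152, 165 and 264 CPM. In CPM it was higher in each of the 6 cows and in TPM in 3 of 6, and the fold change of 1.39 was under the minimum. At 18 hours, control wells held 113, 96.8 and 115 CPM (high) and 97.1, 59.3 and 139 CPM (low), and exposed wells 777, 711 and 556 CPM and 296, 206 and 437 CPM. All exposed wells were then above all control wells, at a fold change of 4.43 (log2 2.15 ± 0.08, edgeR adjusted p = 2.61e-08), the smallest adjusted p of any SLC gene in either comparison.

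SLC39A8 (ZIP8), which brings zinc and manganese into the cell, rose 2.29-fold at 3 hours and 4.49-fold at 18 hours (log2 2.17 ± 0.12, edgeR adjusted p = 2.47e-07). Its exposed wells at 18 hours held 618, 657 and 911 CPM in the high and 506, 342 and 371 CPM in the low responder group, and its control wells 97.9 to 148 CPM. The zinc importer SLC39A2 was low and rose at 3 hours only (FC 2.73; 1.02 to 3.83 CPM without and 2.22 to 12 CPM with E. coli, overlapping). SLC39A6 (ZIP6), also a zinc importer, was not DE at 3 hours (log2 -0.02 ± 0.12) and fell at 18 hours from 48.9 to 73.3 CPM down to 29.4 to 34.8 CPM (FC 1.79). SLC30A5, which moves zinc into the secretory pathway, was not DE at either time.

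Among carriers of the inner mitochondrial membrane, SLC25A28 rose at both times. SLC25A28 (mitoferrin 2), which delivers iron to mitochondria, went from 15.4, 12.7 and 18.7 CPM to 88.0, 108 and 70.9 CPM in high and from 24.4, 22.9 and 21.3 CPM to 83.8, 108 and 84.2 CPM in low responder wells at 3 hours (FC 4.86, log2 2.28 ± 0.15, edgeR adjusted p = 4.43e-06). Control and exposed wells were far apart, and still apart at 18 hours, when exposed wells held 27.5 to 63.6 CPM and control wells 14.2 to 21.3 CPM (FC 2.38). SLC25A33, a pyrimidine nucleotide carrier, rose 1.56-fold at 18 hours. SLC25A22, a glutamate carrier, fell 1.61-fold and 1.53-fold at 3 and 18 hours, and at 3 hours the call was lost without high responder cow 94, whose control library stood apart, low responder cow 91 or low responder cow 92, with log2 values of -0.45, -0.56 and -0.64 in place of -0.68. The carnitine carrier SLC25A20 and SLC25A43 were not DE.

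The group of vitamin, choline and nucleoside carriers held the largest shifts between time points. SLC29A1 (ENT1, ENSBTAG00000015131), which lets nucleosides such as adenosine equilibrate across the plasma membrane, had 30.7, 39.8 and 52.9 CPM (high) and 37.5, 51.4 and 48.9 CPM (low) in control wells at 3 hours, and 171, 116 and 114 CPM and 152, 207 and 112 CPM in exposed wells. All exposed wells were above all control wells, and the fold change was 3.35 (log2 1.74 ± 0.18, edgeR adjusted p = 9.02e-05). At 18 hours, exposed wells held 20.0, 15.4 and 28.7 CPM in the high responder group against 36.9, 44.6 and 48.2 CPM in its controls, and 57.2, 34.2 and 24.9 CPM against 34.5, 18.7 and 39.7 CPM in the low responder group. The mean effect at 18 hours was -0.38 ± 0.19 on the log2 scale and was not DE, with lower exposed wells in 4 of 6 cows.

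The 3 choline carrier-like genes of the SLC44 family that were tested went different ways. SLC44A3 (ENSBTAG00000020344) rose 1.90-fold at 3 hours and 8.15-fold at 18 hours (log2 3.03 ± 0.19, edgeR adjusted p = 4.09e-07), the highest fold change of the set at the later time. Its control wells at 18 hours held 8.23, 9.22 and 1.76 CPM (high) and 4.0, 5.81 and 10.4 CPM (low), and its exposed wells 73.0, 75.9 and 49.9 CPM and 33.2, 29.0 and 61.8 CPM. SLC44A2 (ENSBTAG00000002628) was not DE at 3 hours, with 17.5 to 32.1 CPM in control and 13.8 to 27.6 CPM in exposed wells, and fell 4.29-fold at 18 hours (log2 -2.10 ± 0.14, edgeR adjusted p = 9.4e-07). Its control wells then held 31.5, 26.5 and 47.6 CPM (high) and 28.4, 24.9 and 36.3 CPM (low), and its exposed wells 7.85, 6.08 and 4.93 CPM and 6.94, 8.29 and 11.4 CPM. Control and exposed wells of both genes were thus fully separate at 18 hours, in opposite directions. SLC44A1 (CTL1), the main choline carrier of the family, was higher at 18 hours (FC 1.70), with overlapping wells.

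SLC46A1 (ENSBTAG00000002817), the proton-coupled carrier of folate that also moves heme, had the largest fall of the set at 3 hours. Its control wells held 28.5, 23.2 and 37.5 CPM (high) and 10.2, 15.8 and 13.8 CPM (low), and its exposed wells 2.68, 2.2 and 3.33 CPM and 3.38, 4.82 and 3.20 CPM. High responder wells were thus above low responder wells without E. coli, and not with it. The fold change was 6.03 at 3 hours (log2 -2.59 ± 0.13, edgeR adjusted p = 1.11e-06) and 2.60 at 18 hours (log2 -1.38 ± 0.14, edgeR adjusted p = 1.3e-05). SLC23A2, the vitamin C carrier SVCT2, was DE at 18 hours (FC 1.89; 85.8 to 116 CPM in control and 140.1 to 269 CPM in exposed wells). At 3 hours its log2 change was 0.58 ± 0.17, or 0.37 without cow 94, whose control library held 39.3 CPM. It was DE at 3 hours without high responder cow 92, high responder cow 93 or low responder cow 93 (log2 0.73, 0.66 and 0.63). The riboflavin carrier SLC52A2 and the carnitine carrier SLC22A5 were not DE, and SLC22A15 fell at 18 hours only (log2 -1.12 ± 0.28).

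Of 6 tested carriers of lysosomes, vesicles and the Golgi, 2 were lower at 3 hours, and 3 were lower and 1 was higher at 18 hours. The share DE at 3 hours (33.3%) was near the 25.5% of all genes. SLC46A3, a lysosomal member of the folate carrier family, held 26.0, 20.0 and 32.7 CPM (high) and 31.4, 28.4 and 32.1 CPM (low) in control wells at 18 hours and 48.8, 42.2 and 68.3 CPM and 95, 124 and 78.6 CPM in exposed wells. All exposed wells were above all control wells (FC 2.51, log2 1.33 ± 0.10, edgeR adjusted p = 1.55e-06), and the low responder wells were the higher ones after E. coli. At 3 hours the gene was not DE (log2 -0.24 ± 0.16). SLC18B1, a vesicular polyamine carrier, fell 1.99-fold and 1.89-fold at 3 and 18 hours, and SLC35E4, a member of the nucleotide sugar carrier family, 2.65-fold and 2.50-fold, from levels of 0.955 to 4.17 CPM in control wells at 3 hours. The lysosomal sialic acid exporter SLC17A5 fell 0.59 ± 0.07 on the log2 scale at 18 hours, just past the minimum, and was not DE without low responder cow 91, low responder cow 92 or high responder cow 94, at 0.53 to 0.63 over the fits that leave out 1 cow. The Golgi carrier SLC35A2 and the vesicular nucleotide carrier SLC17A9 were not DE, though SLC17A9 was DE at 18 hours without high responder cow 91 or low responder cow 92 (log2 -0.61 to -0.47 over the fits that leave out 1 cow).

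Sulfate carriers fell at both time points. SLC26A2 (ENSBTAG00000014615), which takes up sulfate for the sulfation of proteoglycans, held 53.8, 75.0 and 18.0 CPM (high) and 22.4, 39.9 and 33.7 CPM (low) in control wells at 3 hours, and 8.63, 11 and 11.7 CPM and 8.51, 11.2 and 8.96 CPM in exposed wells. At 18 hours the control wells held 24.1 to 72.9 CPM and the exposed wells 7.62 to 10.4 CPM. Exposed wells of all cows thus lay close together and below every control well, while control wells were spread widely. The fold changes were 3.54 (log2 -1.82 ± 0.27, edgeR adjusted p = 0.000634, log2 -2.18 without cow 94) and 4.56 (log2 -2.19 ± 0.15, edgeR adjusted p = 8.97e-07). SLC26A11, a sodium-independent sulfate carrier, fell 2.52-fold and 2.14-fold. Of the chloride-coupled carriers, SLC12A9 fell at 18 hours (FC 1.93), and SLC12A4 was not DE, nor was the bicarbonate carrier SLC4A4.

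To see whether the response of the SLC genes changed between 3 and 18 hours, the mean effects of both time points were compared in 1 fit of all 24 libraries. Of 54 genes tested, 11 had a higher and 12 a lower effect at 18 hours (42.6%), beside 26.8% of 11905 genes (10.7% higher and 16.1% lower). The greatest gains were those of SLC44A3 (log2 2.19 ± 0.28, edgeR adjusted p = 4.2e-05), SLC11A1 (log2 1.73 ± 0.12, edgeR adjusted p = 2.62e-07) and SLC46A3 (log2 1.62 ± 0.19, edgeR adjusted p = 2.39e-05). The most negative changes were those of SLC29A1 (log2 -2.07 ± 0.30, edgeR adjusted p = 0.000117) and SLC44A2 (log2 -1.83 ± 0.18, edgeR adjusted p = 5.64e-06). The group thus held early genes, whose rise was gone or smaller at 18 hours (SLC7A5, SLC1A4, SLC13A3, SLC39A2 and SLC29A1), late genes, and genes that moved alike at both times. Of the 52 genes tested at both times, 8 were higher at both, 10 lower at both, 5 higher at 3 hours only, 7 higher at 18 hours only, 1 lower at 3 hours only, 9 lower at 18 hours only, and 12 were DE at neither. Of the 18 genes DE at both times 0 changed direction, and over the whole table it was 73 of 1754 (4.16%), a share that is less than 1 gene of 18. SLC2A3, SLC3A2, SLC26A2 and SLC36A1 had changes with time between -0.32 and 0.32 on the log2 scale, with no DE call among these 4. Without high responder cow 94 at 3 hours, the change of SLC36A1 became DE at 0.66, as did those of SLC38A1 at 0.69 and SLC23A2 at 0.60.

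**Figure D4:**
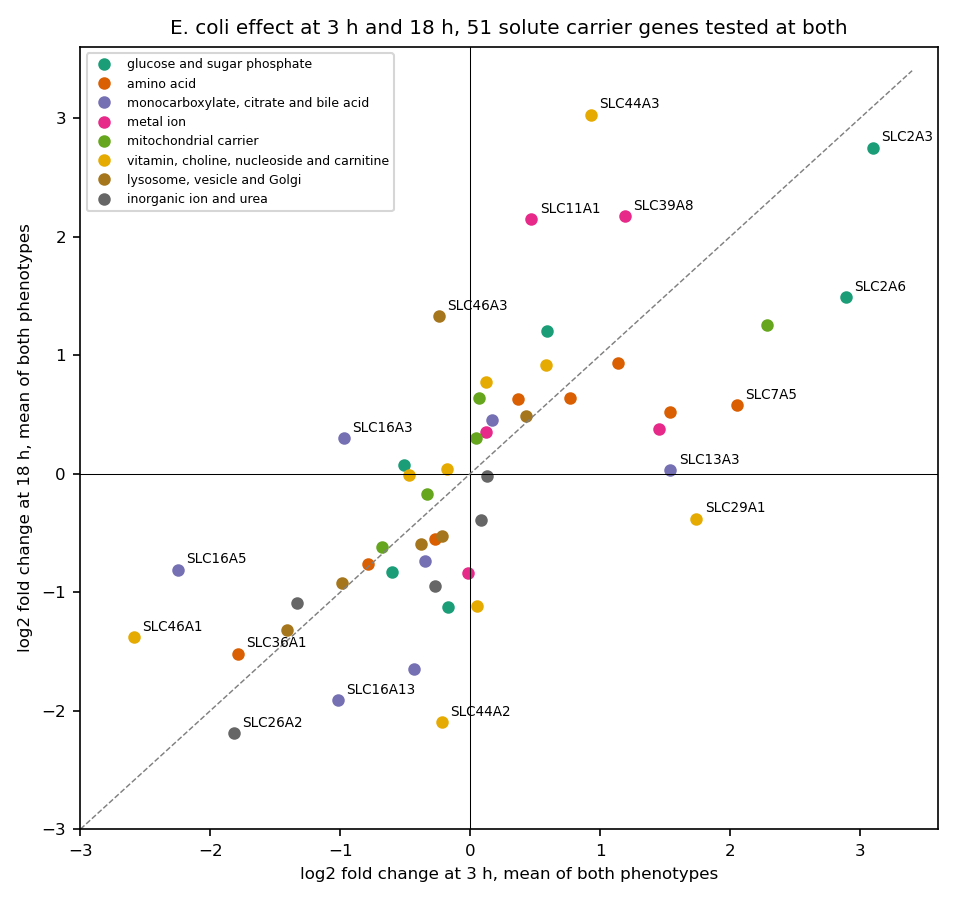
Log2 fold change of E. coli over untreated wells at 3 hours (x axis) against 18 hours (y axis) for 51 SLC genes tested at both, mean of both responder groups, coloured by what the carriers move. The dashed line marks equal effects. SLC29A1, SLC13A3 and SLC7A5 lie below it, at 1.54 to 2.05 on the x axis, and SLC44A3, SLC11A1 and SLC46A3 lie above it.

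The control wells themselves were compared between 18 and 3 hours, without a cow term. The spread between cows thus stayed in this test, and a lack of calls does not show that control wells were unchanged. No SLC gene of 52 tested was DE by edgeR, beside 0.0259% of 11581 genes (0.00863% higher and 0.0173% lower), with 5 SLC genes (9.62%, beside 8.35% of all genes) at an unadjusted p under 0.05 and a smallest adjusted p of 0.295, that of SLC37A2 (log2 -0.68 ± 0.15). DESeq2 called 1 SLC gene in this comparison, SLC37A2, and the fit that matched cows by the letter of the library code also called 1. Control wells of SLC37A2 held 373 to 620.0 CPM at 3 hours and 228 to 375 CPM at 18 hours, and overlapped by a single pair of values.

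The study set out to compare the response of high and low responders. For the 30 genes that were listed by significance at 18 hours, the difference of the E. coli effect at 18 hours is a description and carries no test, since it chose them. The difference is the log2 effect in high minus that in low responders. It was largest for SLC2A3 at 1.35 ± 0.25 (SE), followed by SLC43A2 at 0.98, SLC11A1 at 0.97, SLC7A5 at 0.96, and SLC44A1 and SLC44A3 at 0.90. The most negative values were those of SLC16A11 at -1.45 ± 0.61, SLC16A13 at -1.38, SLC29A1 at -1.35, SLC18B1 at -1.04 and SLC26A2 at -0.93. In all 11 of these genes the changes per cow did not overlap between the responder groups. In SLC26A2 they were apart only by the distance from -2.32 to -2.31 on the log2 scale. Listing by this difference favours such separation, so that it is no further support. Of the 30 genes, 14 had all high responder changes above the low ones and 10 had them below. In the 22 tested genes listed by identifier, it was 2 and 5. The share over all genes was not counted, so these counts do not show whether SLC genes differ from other genes. SLC13A5, the citrate carrier that entered by its significance at 3 hours, had 1.94 ± 0.53 at 3 hours and 1.48 ± 0.38 at 18 hours. Its exposed wells at 18 hours held 158, 178.5 and 169.6 CPM in the high and 52.9, 6.95 and 144.8 CPM in the low responder group, against 74.2, 65.4 and 79.8 CPM and 60.6, 19.7 and 100.1 CPM in their controls. The low responder cows were thus far apart from each other with and without E. coli.

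**Figure D5:**
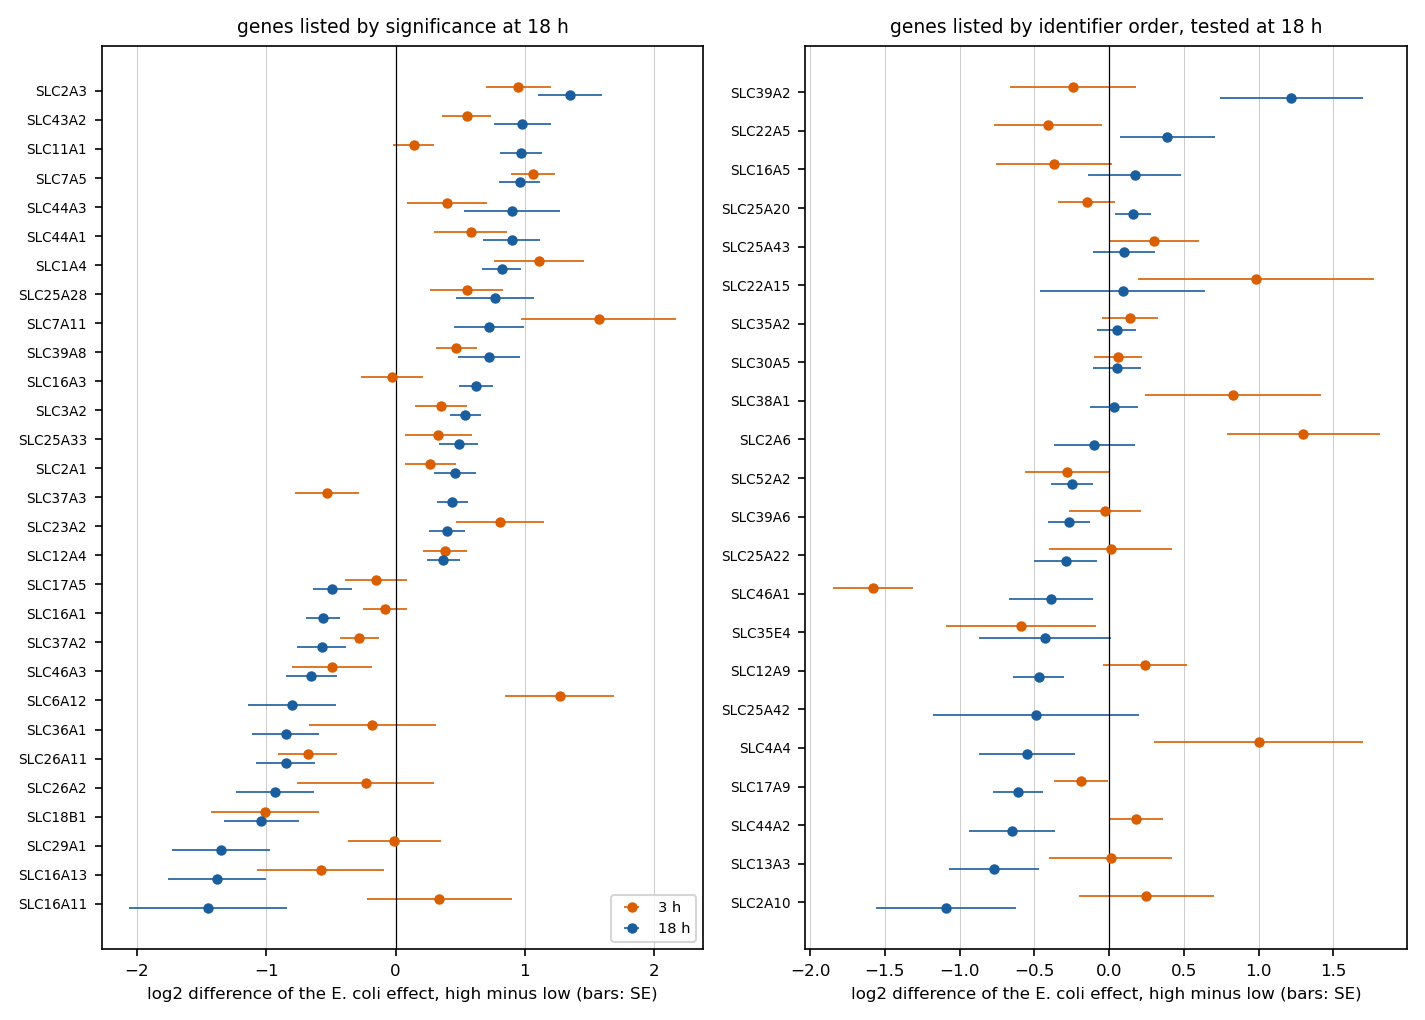
Difference of the log2 E. coli effect between responder groups (high minus low, bars are standard errors) at 3 hours (orange) and 18 hours (blue). The left panel holds 29 of the genes chosen by this difference at 18 hours and the right panel the 22 genes listed by identifier and tested at 18 hours. In the left panel SLC2A3 is at the top (1.35 at 18 hours) and SLC16A11 at the bottom (-1.45).

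The same difference was tested at 3 hours in these 30 genes, in other wells of the same cows. The same cows in the same groups had listed these genes, so their shares at 3 hours are not independent of that choice. An excess over all genes is therefore not a result about the SLC genes. None of the 30 was DE by edgeR, beside 0.178% of 11264 genes. Of the 30, 12 (40.0%, beside 12.7% of all genes) had an unadjusted p under 0.05. DESeq2 called 3, among them SLC2A3 and SLC7A5. The nearest to the threshold was SLC7A5 (log2 1.06 ± 0.17, edgeR adjusted p = 0.0513). The changes per cow of SLC7A5 at 3 hours were 2.25 to 2.72 in high and 1.37 to 1.58 in low responders, so that the groups did not overlap. Without high responder cow 94, whose control library stood apart, 8 of the 30 genes were DE (5 higher and 3 lower), beside 4.46% of 11315 genes. They included SLC25A28, SLC2A3, SLC6A12 and SLC7A5 with a larger rise or smaller fall in high responders and SLC18B1, SLC26A2 and SLC36A1 with a larger fall in high responders. In this fit SLC26A2 moved from -0.23 to -0.98 and SLC36A1 from -0.18 to -0.87 on the log2 scale, whereas SLC7A5 (1.03) stayed near its value from all cows.

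In the 40 genes listed by identifier, the difference at 18 hours could be tested in 22. No gene was DE by edgeR or by DESeq2, beside 1.62% of 11759 genes (1.34% higher and 0.281% lower), and 5 (22.7%) had an unadjusted p under 0.05, near the 17.6% of all genes. The smallest edgeR adjusted p was 0.0983, that of SLC17A9. SLC46A1, listed by identifier, had a difference of -1.58 ± 0.27 at 3 hours, with changes of -3.31 to -3.14 in high and -1.95 to -1.46 in low responder cows, and -0.39 ± 0.28 at 18 hours. Some rows of its list were placed by results at 3 hours, so that this value is given with no test.

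Genes that work beside the carriers were looked up from 6 lists with 44 genes, of which 26 have a symbol here, and these lists are therefore not complete and were partly placed by significance as well. Beside their counts stand 13.5% of all genes that were higher at 3 hours and 15.1% at 18 hours, with 12% and 21.4% lower. Genes of the amino acid response, which cells switch on when amino acids run short, rose as SLC7A5 and SLC1A4 did at 3 hours, in 8 of 8 with a symbol (median log2 1.93), and 7 of 8 were still higher at 18 hours (median 0.94). At 3 hours they were led by DDIT4, an inhibitor of the growth kinase mTORC1, at log2 4.40 ± 0.12, and CHAC1, a glutathione-degrading enzyme, at 4.15 ± 0.26. At 18 hours they were led by DDIT4 at 2.26 ± 0.14 and SESN2, a leucine sensor, at 1.13 ± 0.06, and CHAC1 had 0.83 ± 0.22. Of 4 genes of arginine and nitric oxide metabolism, 3 rose at both times, among them NOS2, the inducible nitric oxide synthase, at log2 8.01 ± 0.19 and 9.56 ± 0.16. The fourth, ASS1, which regenerates arginine from citrulline, fell at 18 hours by 2.84 ± 0.19 on the log2 scale. Of 8 glycolysis genes, PFKFB3, whose product stimulates glycolysis, was the only one higher at 3 and at 18 hours (log2 1.99 ± 0.12 and 1.28 ± 0.15), and PFKP was lower at 18 hours (-1.22 ± 0.07). The share that was higher, 1 of 8, was near that of all genes. The other 6 glycolysis genes were not DE at either time in the mean of both responder groups. This mean can hide changes that differ between the groups. At 18 hours, mean LDHA went from 1167.8 to 1916.1 CPM in high and from 984.9 to 839.5 CPM in low responders. All 3 iron and metal storage genes rose at both times, led by the metallothionein MT2A at log2 3.45 ± 0.13 and 5.08 ± 0.17. The list made for glutathione and cystine held 3 genes with a symbol, of which only GCLM serves glutathione itself. HMOX1, a heme oxygenase, fell at both times. GCLM and the thioredoxin reductase TXNRD1 rose at 18 hours (log2 0.92 ± 0.10 and 1.41 ± 0.08).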

How the data were processed

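RNA of MDMs from 6 cows (8 conditions, 3 libraries each, 24 in all) was sequenced as stranded poly(A) libraries. Reads were trimmed with Trimmomatic, checked with FastQC 0.11.5, aligned to UMD 3.1 of the bovine genome (STAR) and quantified by the authors (RSEM). The deposited expected counts are not normalized, whereas the deposited TPM and FPKM values are scaled by the authors' software for length and depth. The deposited tables also give effective lengths. Expected counts were rounded. No SLC gene had a fractional count in any library. Totals of 6297190 to 20936554 limit calls in genes with few counts.

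Fits used edgeR 4.0.16 under R 4.3.3 (filterByExpr, TMM, quasi-likelihood test, Benjamini-Hochberg adjustment over all genes tested), with a term for each cow and 1 E. coli effect per responder group. Genes with adjusted p < 0.05 and absolute FC > 1.5 were DE. Control wells of both time points were compared without the cow term. CPM are TMM-normalized. Changes per cow use a pseudocount of 0.5 CPM, and log2 fold changes of low genes are moderated by edgeR. TPM was used for levels and to check directions. Control and exposed wells of a responder group and time point that share a library code were paired. Their deviations from the condition means correlated at 0.327 to 0.732 in 12 pairs, against -0.568 to 0.00519 between 24 pairs of different codes. With 3 cows a group, a permutation test of a single value cannot go below p = 0.1, and p-values measure the spread between these cows' wells.

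The members, role lists, partner lists and tests were chosen with earlier results of these data known. Named genes are up to 3 DE members with the largest effect per role list and time, the 10 highest in TPM, the 5 with the largest DE change with time, the 5 largest differences between responder groups in each direction among genes chosen on it, and partner subunits. Other members are named to account for the set. Alternatives were DESeq2 1.42.0 size factors or test, other filters on low counts, no minimum FC, the pairing and leaving out each cow at each time point in turn. In fits of both time points, the wells of that cow at the other time point stayed in. The fits were tested on simulated data. Symbols came from the study's gene lists, whose columns of fold changes and p-values were not used. The rest of the SLC family, promoters and protein sequences were not analysed here, and results for some genes are not reported.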

Additional observations from a re-analysis of the deposited data

Results flagged for a closer look

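The effect of E. coli differed between 3 and 18 hours, by the edgeR test of the change between both mean effects (all 24 libraries), in 21 of the named genes. The log2 change from 3 to 18 hours was positive in SLC44A3 (2.19), SLC11A1 (1.73), SLC46A3 (1.62), SLC16A5 (1.48), SLC46A1 (1.26), SLC39A8 (1.02), SLC44A1 (0.70), SLC2A1 (0.66) and SLC25A33 (0.62). It was negative in SLC29A1 (-2.07), SLC44A2 (-1.83), SLC13A3 (-1.47), SLC7A5 (-1.42), SLC2A6 (-1.36), SLC39A2 (-1.02), SLC25A28 (-0.98), SLC1A4 (-0.97), SLC37A2 (-0.92), SLC16A13 (-0.83), SLC39A6 (-0.77) and SLC12A9 (-0.62). In SLC16A5 and SLC46A1 a positive value stands for a weaker fall at 18 hours, since both were lower than control at both times. The change was also DE and positive in SLC16A3 and SLC37A3, which the rule for named genes does not cover. Each of the 12 fits that leave out 1 cow drops its wells at 1 time point only. The wells of that cow at the other time point stay in, so these are not fits without the animal. Over these fits, SLC16A3 had log2 values of 1.26 to 1.44, with the call in 12 of 12. In SLC16A13 the call held in 3 of these 12 fits, with log2 values between -1.03 and -0.65.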

How the results depend on the processing

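Of 2381 values of named genes under the alternatives, 2301 kept their direction and side of the threshold, 45 lost and 35 gained a call, and 0 reversed. On the TPM scale, a comparison chosen after seeing the data, all 24 SLC genes DE at 3 hours and all 34 at 18 hours kept their direction. Counts of DE members stayed within 1.5 times the main count except where that count was 0. For control wells, DESeq2 and the replicate block (cows matched by the letter of the library code) each gave 1 gene. For the difference between responder groups at 3 hours, DESeq2 gave 3 genes, no filter on low counts gave 2, and leaving out 1 cow gave 0 to 8, the 8 without high responder cow 94. The cause was not tested.

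Without the pairing (no replicate block), 21 genes were DE at 3 hours, 33 at 18 hours and 17 in the change with time, in place of 24, 34 and 23. Leaving out 1 cow at 1 time point gave 22 to 26, 32 to 37 and 19 to 27 genes. The calls lost in at least 1 of these fits were SLC25A22 and SLC2A1 at 3 hours and SLC17A5, SLC2A10, SLC38A1 and SLC7A11 at 18 hours. In the change with time, SLC37A3 was lost without the high or the low responder cow 93 of 3 hours (log2 0.53 to 0.73), and SLC16A13 in 9 of 12 fits. SLC12A9 (-0.73 to -0.53), SLC25A33 (0.51 to 0.72) and SLC39A2 (-1.23 to -0.76) were lost without high responder cow 92 of 3 hours, whose control library stood apart, and without low responder cow 94 of 18 hours. They were also lost without low responder cow 93 of 3 hours and high responder cow 94 of 18 hours (SLC12A9), without low responder cow 92 of 3 hours and high responder cow 93 of 18 hours (SLC25A33 and SLC39A2), and without high responder cow 93 of 3 hours (SLC39A2). The change of SLC16A11 was gained in 3 of 12 fits (-1.43 to -0.84 over all), and SLC39A2 was DE at 18 hours without high responder cow 93 (0.64). The order of the members by TPM and by FPKM differed by at most 1 rank. Members that were not tested in a comparison had at most 19 counts in any library.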
